A study of Saccharomyces cerevisiae with 18 samples.

Results

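The adenine synthesis mRNAs are the transcripts of 10 budding yeast genes, ADE4, ADE5,7, ADE8, ADE6, ADE2, ADE1, ADE13, ADE16, ADE17 and ADE12, picked by their systematic locus names out of 7127 counted features. They were chosen partly because most of them held a smaller share of the RNA in basket-containing than in basket-less nuclear pore complexes (NPCs). All values of that contrast, and of the same contrast with the background controls taken off, are therefore descriptive. All 10 passed the filter on low counts. The study sequenced polyadenylated RNA from strain W303, grown asynchronously to log phase in YPD medium and ground frozen, in 18 libraries. The groups were basket-containing pores captured on IgG, basket-less pores captured on a GFP nanobody, all NPCs on the GFP nanobody, the PrA background control on IgG, the GFP background control on the GFP nanobody, and the total extract (input), with 3 libraries each. The sources used here give neither the tagged proteins nor the rest of the genotypes. They do not say whether replicates were separate cultures, so each p-value refers to library-to-library spread alone, and that spread may be technical.

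Yeast builds purines on a ribose phosphate scaffold in a chain of reactions that ends in inosine monophosphate (IMP), which then goes either to AMP or to GMP. The enzymes are known for being made together: the transcription factors Bas1 and Pho2 switch most ADE genes on when adenine is scarce. ADE2 and ADE1 are familiar to every yeast laboratory because cells that lack either enzyme collect a red pigment. Laboratory strains of the W303 family often carry a nonsense allele of ADE2, but the sources used here do not give the ADE2 genotype of these cells. mRNA leaves the nucleus through the NPC, whose nuclear side carries a set of filaments called the basket.

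Each library held between 10592840 and 16620246 counts, and the filter left 6429 genes for testing. Counts of the 10 members ran from 902 for ADE8 to 20559 for ADE17, so none was near the limit of detection. Replicates of a group differed by a chi-square per degree of freedom of 1.58 to 9.54, except that replicate 3 of the PrA control stood at 18.7 and 20.4 against its partners. Leaving that library out changed the number of members called only in the PrA control against the GFP control. It also moved single values, and those of ADE6 are given with and without it. Levels are in CPM, the share of all counts on a scale of 1e+06, adjusted by edgeR's TMM factors, except where a raw percentage of counts is given. Both are shares of a library, so fewer molecules per cell and more of other RNA cannot be told apart.

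The genes lie on 7 chromosomes and each is a single coding exon that overlaps no other gene of the R64 annotation. ADE17 (YMR120C) lies at chrXIII:507502-509280 on the minus strand, ADE13 (YLR359W) at chrXII:844282-845730 on the plus strand and ADE12 (YNL220W) at chrXIV:234413-235714 on the plus strand. ADE16 (YLR028C) lies at chrXII:199540-201315 and ADE2 (YOR128C) at chrXV:564476-566191, both on the minus strand. Coding lengths ran from 645 bases for ADE8 to 4077 bases for ADE6. Bas1 binds the letters TGACTC, which occur on either strand within 300 bases before the start codon in 8 of the 10 genes, with 12 matches in all that do not overlap each other. ADE4 and ADE16 had no match in this window. Among all 6007 protein-coding genes searched the same way, 466 (7.76%) had a match. The 30 bases around 6 of these 12 matches are shown in R64, 5′ to 3′ on the coding strand of the gene. The match is in capitals (GAGTCA where the match is on the other strand). The ADE1 stretch also holds another of the 12 matches, on the other strand, left in lower case (gagtca).
ADE17, chrXIII:509440-509469, minus strand: ccagaaatgaatTGACTCctctcataactt
ADE13, chrXII:844054-844083, plus strand: cctccgcgagcaGAGTCAaacttcaaacaa
ADE1, chrI:169146-169175, plus strand: cacgagtcagtcTGACTCttgcgagagatg
ADE2, chrXV:566370-566399, minus strand: tatgctgacaaaTGACTCttgttgcatggc
ADE5,7, chrVII:56253-56282, plus strand: ttttttttcagtTGACTCgccccgtcggta
ADE12, chrXIV:234179-234208, plus strand: atccttttcattGAGTCAcagattaacaaa
These matches are a description of the letters. Binding was not measured, and any link to the differences between pore types was not tested.

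The pathway took up a very different share of the libraries from group to group. Without TMM adjustment, the 10 mRNAs together made up 0.278 ± 0.0045% of counts for basket-containing pores, but 0.751 ± 0.0039% for basket-less pores and 0.662 ± 0.0018% for all NPCs (mean ± SD of 3 libraries, here and in the next sentence). The PrA control held 0.347 ± 0.0025%, the GFP control 0.307 ± 0.0015% and total extract 0.576 ± 0.0032%. These raw shares were above input in basket-less pores and all NPCs and lowest in basket-containing pores, with no overlap between groups. The place of basket-containing pores depends on the scale. After TMM adjustment the summed level was 3238 ± 34.4 CPM in basket-containing pores, which overlapped the PrA control (3228 ± 125 CPM) and lay above the GFP control (2984 ± 46.8 CPM). It was 7328 ± 25.4 CPM in basket-less pores, 6354 ± 28.2 CPM in all NPCs and 5837 ± 68.5 CPM in input, in the same order as the raw shares. Of the single genes, 6 had their highest mean in basket-less pores, 3 in input (ADE4, ADE2 and ADE13) and 1 in the PrA control (ADE12). The lowest mean was in basket-containing pores for 5 genes (ADE4, ADE5,7, ADE8, ADE13 and ADE12). Some of these places are near ties. The libraries of ADE13 overlapped between input and basket-less pores, and those of ADE16 between basket-less and basket-containing pores. Those of basket-containing pores overlapped the GFP control for ADE4 and input for ADE8. The counts were not set beside all genes and share libraries with the contrast that chose the members, so nothing is read from them. Per kilobase of coding length, the most abundant member was ADE17 in basket-less pores (826 CPM per kb) and in all NPCs (699.6 CPM per kb), but ADE13 in input (778 CPM per kb). In basket-containing pores and in the GFP control it was ADE16, at 336 and 269 CPM per kb, and in the PrA control it was ADE12, at 507 CPM per kb. The least abundant per length was ADE4 in all groups except the PrA control, where it was ADE2, and input, where it was ADE8. Over the 18 libraries ADE5,7 ranged from 379 CPM (basket-containing) to 1080 CPM (basket-less). ADE6 ranged from 558 CPM (PrA control) to 1268 CPM (basket-less), and ADE1 from 179.6 to 569 CPM in the same groups. ADE8 ranged from 83.5 CPM (basket-containing) to 174 CPM (basket-less), and ADE4 from 119.5 CPM (basket-containing) to 303 CPM (input).

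**Figure D1:**
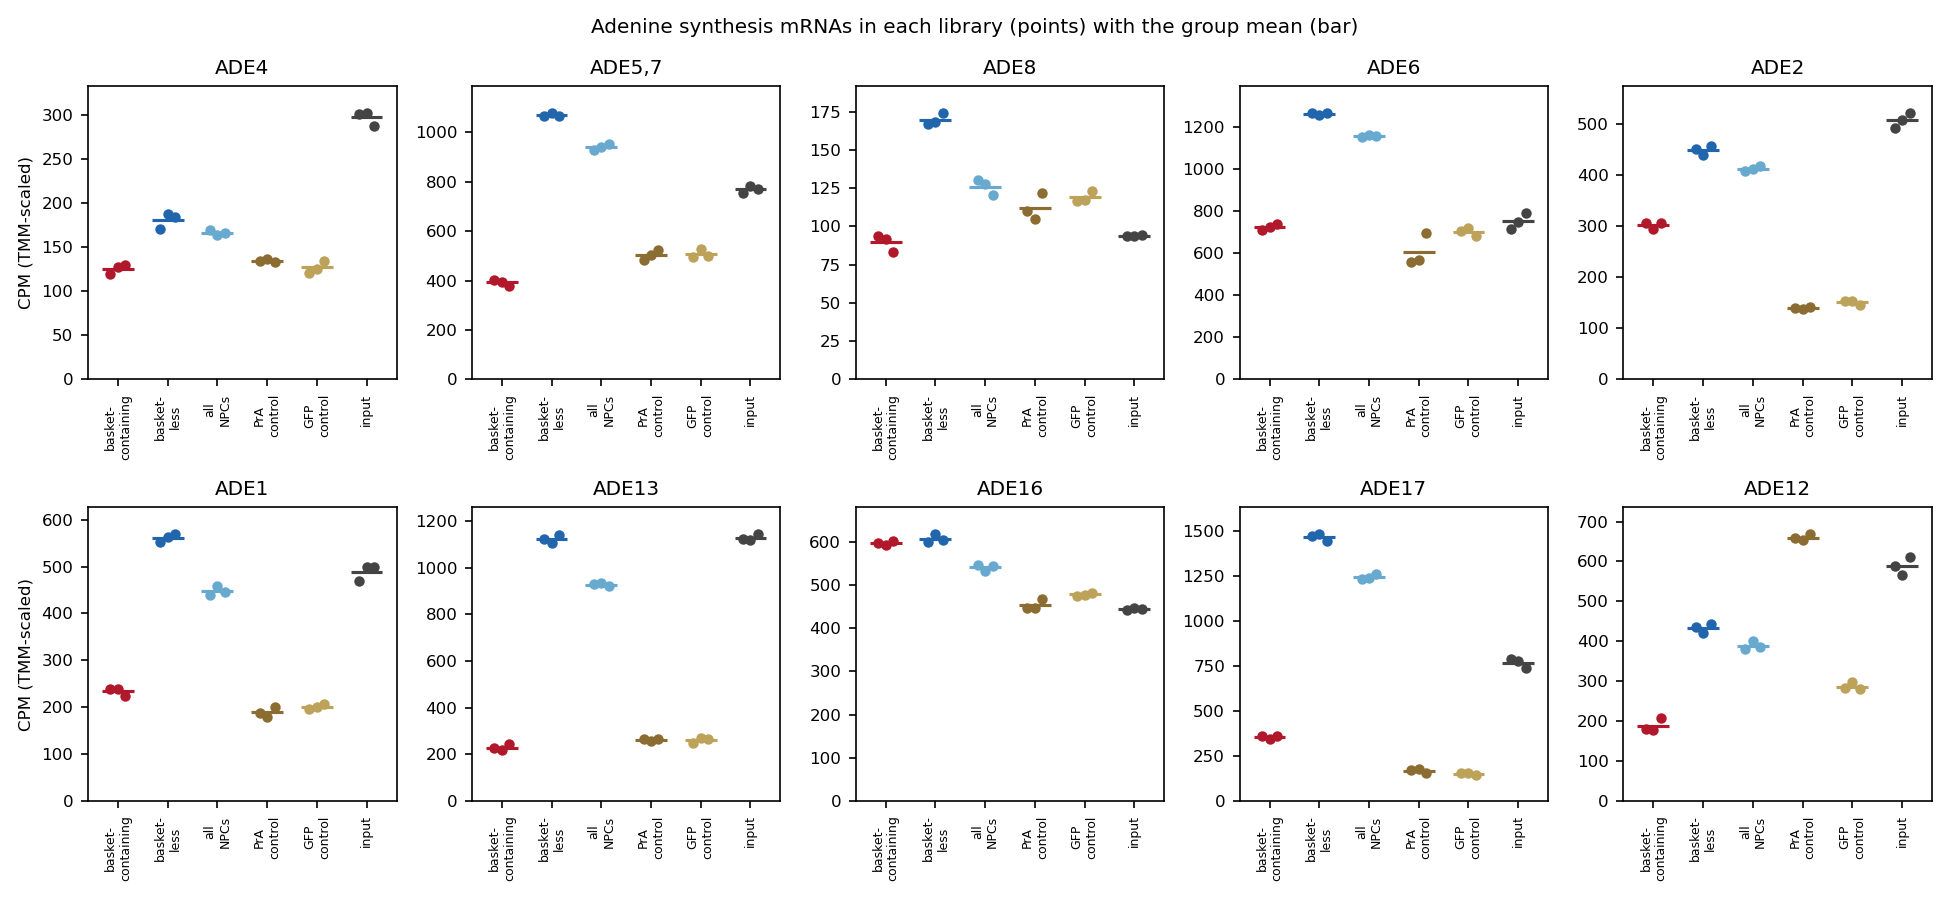
TMM-scaled CPM (y axis, from 0) of each of the 10 mRNAs in the 18 libraries (points) with the mean of each group (bar), in the order of the pathway. ADE17 runs from 144 CPM in the GFP control to 1484 CPM in basket-less pores, ADE16 is the flattest, and ADE12 alone has its highest values in the PrA control.

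Basket-containing pores held less of 9 of the 10 mRNAs than basket-less pores, by very different amounts. ADE13 encodes adenylosuccinate lyase, which acts once on the way to IMP and again on the way to AMP. It stood at 224, 218 and 242 CPM in basket-containing pores, against 1124, 1104 and 1140 CPM in basket-less pores. The groups lay far apart, and the log2 fold change was -2.30 ± 0.04 (± SE here and below). ADE17, one of a pair of genes for the bifunctional enzyme that closes the IMP ring, stood at 359.7, 344 and 359 CPM in basket-containing pores, against 1474, 1484 and 1448 CPM in basket-less pores. Its log2 fold change was -2.05 ± 0.05. The next largest differences were in ADE5,7 (-1.45 ± 0.04), a fused enzyme that works at separate early steps, ADE1 (-1.26 ± 0.04), SAICAR synthetase, and ADE12 (-1.20 ± 0.05), adenylosuccinate synthetase of the AMP branch. Smaller ones were in ADE8 (-0.92 ± 0.05), glycinamide ribotide transformylase, ADE6 (-0.80 ± 0.06), which makes formylglycinamidine ribotide, ADE2 (-0.57 ± 0.04), AIR carboxylase, and ADE4 (-0.53 ± 0.05), the amidotransferase that commits PRPP to the pathway. ADE16 overlapped between the groups, at 597, 592 and 603 CPM in basket-containing pores, against 601, 618 and 604 CPM in basket-less pores. Its log2 fold change was -0.02 ± 0.03, and its direction depends on the scaling. It was called higher with DESeq2 size factors (0.11), with no filter (0.10) and without replicate 3 of the basket-containing pores (0.10), and called lower with upper-quartile factors (-0.10). A gene was called where the p of edgeR's quasi-likelihood test, adjusted by the Benjamini-Hochberg method over all genes tested, was below 0.05. By this rule 9 of 10 were called lower and 0 higher, where 42.2% of all genes were called lower and 40.3% higher, and with upper-quartile factors 10 were called lower. This contrast chose the members, so nothing is read from that count. The median of the members was -1.06, beside -0.04 over all genes tested.

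Basket-containing pores were purified on IgG and basket-less pores on the nanobody, so matrix and basket cannot be told apart in the direct contrast. With each group set against its own background control, the difference was -2.30 ± 0.06 for ADE13, -2.19 ± 0.06 for ADE17, -1.43 ± 0.05 for ADE5,7 and -1.17 ± 0.06 for ADE1, close to the direct values. ADE8 was at -0.83 ± 0.07 (-0.92 directly) and ADE2 at -0.46 ± 0.05 (-0.57 directly), both nearer to 0. ADE6 moved more, from -0.80 directly to -0.59 ± 0.08. It was at -0.49 without the PrA control library that differed most from its partners. ADE4 went the other way, from -0.53 directly to -0.61 ± 0.07. For ADE12 the difference was -2.40 ± 0.07, further from 0 than the direct value. By construction, each gene's shift from its direct value is its difference between the controls, which was largest for ADE12. The shifts are therefore no separate result. ADE16 was at 0.05 ± 0.05, at 0.19 if DESeq2 size factors were used and at -0.02 with upper-quartile factors. Again 9 of 10 were called lower and 0 higher, beside 39.5% and 36.6% of all genes.

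All NPCs held most of these mRNAs above background. All NPCs against the GFP control uses neither basket-containing nor basket-less libraries. The GFP control does enter the contrast with controls taken off, and the genes were chosen with earlier results of these data known. The calls are therefore not an independent check on that choice. ADE17 stood at 1234, 1240 and 1261 CPM in all NPCs, against 156, 152 and 144 CPM in the GFP control. The libraries did not overlap, and ADE17 rose by 3.04 ± 0.05 on the log2 scale (two-sided edgeR adjusted p = 6.33e-26, n = 3 per group), at percentile 99.3 of the log2 fold changes of all genes tested. ADE13 stood at 928, 934 and 919.7 CPM in all NPCs, against 248, 268 and 266 CPM in the GFP control, a rise of 1.83 ± 0.04 (edgeR adjusted p = 5.95e-23). ADE2 stood at 408, 412 and 419 CPM in all NPCs, against 154, 153 and 147 CPM in the GFP control, a rise of 1.45 ± 0.04 (edgeR adjusted p = 9.79e-22). ADE1 rose by 1.16 ± 0.04, ADE5,7 by 0.89 ± 0.04 and ADE6 by 0.72 ± 0.06. ADE12 (0.44 ± 0.05) and ADE4 (0.39 ± 0.05) rose less. The remaining pair depend on the scaling: ADE16 rose by 0.18 ± 0.03, was not called with DESeq2 size factors (0.06) and was at -0.11 with upper-quartile factors, and ADE8 was not called at 0.08 ± 0.05 and was at -0.21 with upper-quartile factors, with which both were called lower. In all, 9 of 10 were called higher and 0 lower, beside 46.9% and 37.6% of all genes, and the members' median was 0.81, beside 0.11 over all genes. With upper-quartile factors 8 were called higher and 2 lower, and the median of all genes was lower by 0.29.

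Both background controls held much less ADE17, ADE13, ADE2, ADE1 and ADE4 mRNA than total extract. ADE17 stood at 169.2, 176.7 and 152.5 CPM in the PrA control and at 156, 152 and 144 CPM in the GFP control, against 788, 778 and 738 CPM in input. The log2 fold change was -2.21 ± 0.05 in the PrA control and -2.35 ± 0.05 in the GFP control (edgeR adjusted p = 7.28e-23 and 3.15e-23, n = 3 per group), the 26th and 23rd lowest of the 6429 genes tested. ADE13 stood at 264, 254.5 and 265 CPM in the PrA control and at 248, 268 and 266 CPM in the GFP control, against 1120, 1118 and 1143 CPM in input. It fell by 2.11 ± 0.04 in both controls (edgeR adjusted p = 2.10e-23 and 2.16e-23). ADE2 fell in the PrA control (-1.86 ± 0.04) and in the GFP control (-1.75 ± 0.04), as did ADE1 (-1.37 ± 0.04 and -1.29 ± 0.04), ADE4 (-1.14 ± 0.05 and -1.23 ± 0.05) and ADE5,7 (-0.61 ± 0.04 and -0.60 ± 0.04), each with the PrA control's value first. ADE8 rose by 0.26 ± 0.05 in the PrA control and by 0.35 ± 0.05 in the GFP control. ADE6 fell in the PrA control (-0.31 ± 0.06, or -0.41 without replicate 3 of that control) and was not called in the GFP control (-0.10 ± 0.06). ADE16 was not called in the PrA control (0.03 ± 0.03) and rose in the GFP control (0.11 ± 0.03). In each control 7 of 10 were called lower and 2 higher. For the PrA control 41.2% of all genes were called lower and 37.5% higher, and for the GFP control 42.4% and 37.2%. Both comparisons share the input libraries, and the GFP control is also the baseline for the nanobody pores.

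ADE12 was the member that differed most between the controls. It stood at 659, 653 and 668 CPM in the PrA control, against 283, 297 and 279.7 CPM in the GFP control. Input lay between them, at 588, 566 and 610 CPM. The libraries did not overlap, and ADE12 was higher in the PrA control by 1.20 ± 0.05 on the log2 scale (edgeR adjusted p = 1.61e-16, n = 3 per group), at percentile 99.5 of all genes tested. Without replicate 3 of the PrA control it was also 1.20. Against input it rose by 0.17 ± 0.05 in the PrA control and fell by 1.04 ± 0.05 in the GFP control. The other members differed little between the controls: ADE17 was higher in the PrA control (0.14 ± 0.05), and ADE2 (-0.11 ± 0.04) and ADE6 (-0.21 ± 0.06) were lower. With all libraries 2 members were called higher and 2 lower, beside 16.1% and 16.7% of all genes. The 3 smaller calls depend on single libraries. All 3 were lost without replicate 1 or without replicate 2 of the PrA control, which left 1 higher (ADE12) and 0 lower. ADE17 was also lost without replicate 2 or 3 of the GFP control (1 higher), and ADE2 without its replicate 1 or 2 (1 lower). Without replicate 3 of the PrA control 5 were called lower, with ADE6 at -0.31.

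**Figure D2:**
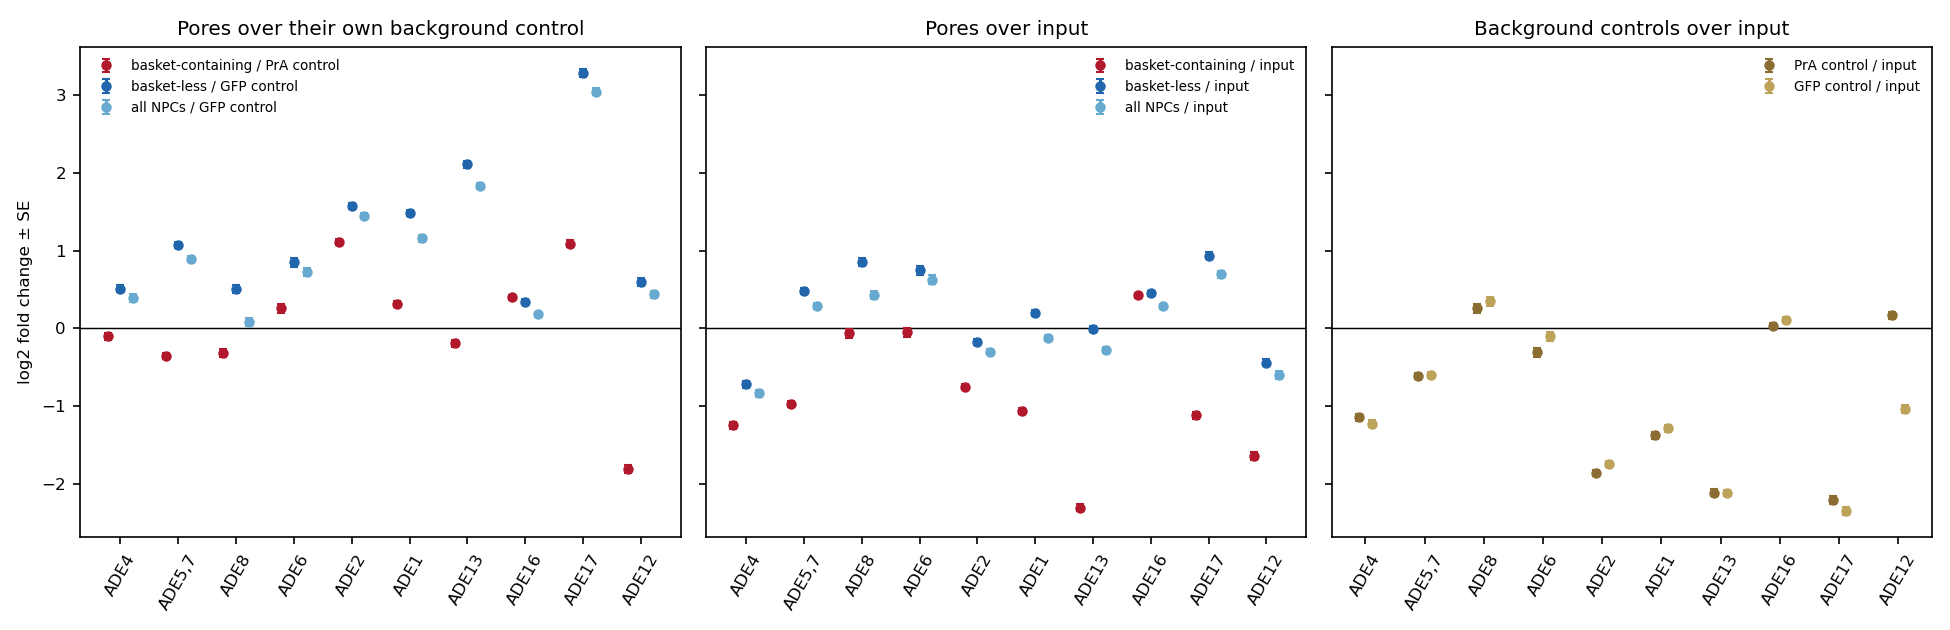
Log2 fold change ± SE (y axis) of each mRNA for pores over their own background control (left), pores over input (middle) and controls over input (right), from 1 fit to the 18 libraries with 3 per group. The ADE17 points of the nanobody pores reach 3.28 and 3.04 over the GFP control, all GFP-nanobody points are above 0 in the left panel, and the controls lie furthest apart at ADE12.

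Against total extract, the members split in all NPCs: 5 of 10 were called higher and 5 lower, beside 44.6% and 37.1% of all genes, with a median of 0.08 for the members and for all genes alike. ADE17 rose by 0.70 ± 0.04 over input (edgeR adjusted p = 9.48e-14, n = 3 per group), ADE6 by 0.62 ± 0.06 and ADE8 by 0.43 ± 0.05. ADE5,7 (0.29 ± 0.04) and ADE16 (0.29 ± 0.03) rose less and were not called with upper-quartile factors (0.02 and 0.01). ADE4 fell by 0.84 ± 0.04 (edgeR adjusted p = 4.76e-15) and ADE12 by 0.60 ± 0.05, while ADE2 (-0.30 ± 0.04), ADE13 (-0.28 ± 0.04) and ADE1 (-0.13 ± 0.04) were slightly lower. The entry enzyme ADE4, at 169.5, 164 and 165.7 CPM in all NPCs against 301, 303 and 288 CPM in input, was furthest below extract.

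The remaining comparisons each share libraries with the contrast that chose the genes, so their values are given without p-values. Over the GFP control, basket-less pores had 10 of 10 called higher and 0 lower, beside 47.1% and 35.5% of all genes, from ADE16 (0.34 ± 0.03) to ADE17 (3.28 ± 0.05), with ADE13 at 2.11 ± 0.04, ADE2 at 1.57 ± 0.04 and ADE1 at 1.48 ± 0.04. In basket-containing pores over the PrA control, 5 were called higher and 5 lower, beside 43.8% and 46.5% of all genes. ADE2 (1.11 ± 0.04) and ADE17 (1.09 ± 0.05) were higher there, also with upper-quartile factors (0.77 and 0.75). ADE16 (0.40 ± 0.03), ADE1 (0.31 ± 0.04) and ADE6 (0.26 ± 0.06) were called higher too, but lost the call with upper-quartile factors, at 0.055, -0.03 and -0.08. Without replicate 3 of the PrA control ADE6 was at 0.36. ADE12 was the lowest at -1.81 ± 0.05, beside its high level in the PrA control, followed by ADE5,7 (-0.36 ± 0.04), ADE8 (-0.32 ± 0.05), ADE13 (-0.19 ± 0.04) and ADE4 (-0.10 ± 0.05), whose call is lost in 7 of the alternative settings.

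Over input, basket-containing pores had 1 member called higher (ADE16, 0.43 ± 0.03) and 7 called lower, beside 43.9% and 45.5% of all genes, with ADE13 at -2.30 ± 0.04 and ADE12 at -1.64 ± 0.05. ADE8 (-0.06 ± 0.06) and ADE6 (-0.05 ± 0.06) were not called, but both were called lower with upper-quartile factors (-0.40 and -0.38). Basket-less pores over input had 6 called higher and 3 lower, beside 44.0% and 36.1% of all genes, with ADE17 at 0.94 ± 0.04 and ADE8 at 0.86 ± 0.05 at the top and ADE4 at -0.72 ± 0.04 at the bottom. ADE1 was at 0.20 ± 0.04 there, or -0.05 with upper-quartile factors. ADE13, the gene that differed most between the pore types, was at -0.01 ± 0.04 there and not called. It was called lower with DESeq2 size factors (-0.11), the DESeq2 Wald test (-0.11), upper-quartile factors (-0.26), no filter (-0.09) and only the groups compared (-0.07). On the same nanobody, all 10 had a higher mean in basket-less pores than in all NPCs, and 9 were called higher and 0 lower, beside 20.3% and 22.8% of all genes. These differences were small, from 0.12 ± 0.05 for ADE4 to 0.43 ± 0.05 for ADE8, and ADE6 was not called (0.13 ± 0.06). The count was 8 to 10 over the alternatives. The ADE4 call was lost with no filter and without replicate 2 or 3 of either group (0.09 to 0.12), and ADE6 was called with upper-quartile factors (0.14) and with only the groups compared (0.13).

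ADE16 and ADE17 encode isozymes of the same bifunctional enzyme, and they did not move together. Per kilobase, ADE17 over ADE16 was 0.592 ± 0.011 for basket-containing pores, but 2.41 ± 0.032 for basket-less pores and 2.29 ± 0.040 for all NPCs (mean ± SD of 3 libraries, here and in the next sentence). The ratio was 0.366 ± 0.037 on IgG alone (PrA control), 0.315 ± 0.015 on the nanobody alone (GFP control) and 1.73 ± 0.064 in total extract. ADE17 was the more abundant isozyme transcript in all libraries of input and of the nanobody pores, and ADE16 in all libraries of basket-containing pores and of the controls. A ratio within a library shows unequal change and not which of the pair changed. Reads can be split between near-identical copies, so the coding sequences were aligned. They matched at 1329 of 1779 aligned positions (74.7%), and the longest run shared without a mismatch was 19 bases. That run, at coding bases 1157 to 1175 of both genes, is shown in capitals with 5 bases on each side, 5′ to 3′ on the coding strand (R64, minus strand in both).
ADE16, chrXII:200136-200164: gttacAACAAAAGAGAAACGATGCgatca
ADE17, chrXIII:508101-508129: tttggAACAAAAGAGAAACGATGCcataa
The sources used here do not give the read length or the treatment of reads with several matches.

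**Figure D3:**
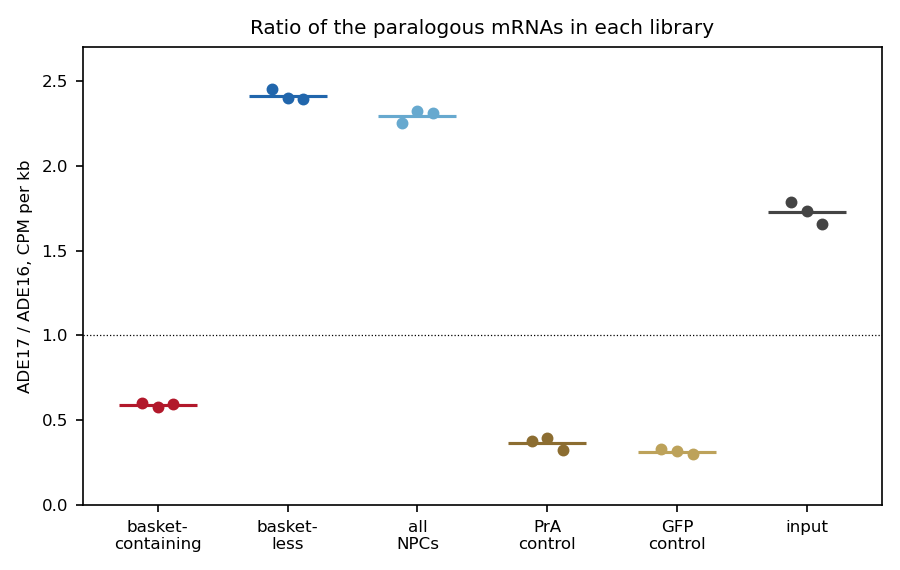
Ratio of ADE17 to ADE16 in CPM per kilobase of coding length (y axis, from 0, dotted line at 1) in each library (points) with the group mean (bar). The 9 libraries of basket-less pores, all NPCs and input lie above 1, and the 9 libraries of basket-containing pores and the controls lie between 0.299 and 0.601.

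Log2 fold changes moved with coding length across all genes, so the members were set beside genes of their own length. The part of length in the results was not tested. In basket-containing over basket-less pores, the median log2 fold change was -0.49 over 2302 genes shorter than 1000 bases, 0.05 over 2180 genes from 1000 to under 2000 bases, 0.56 over 800 genes from 2000 to under 3000 bases and 0.69 over 491 genes of 3000 bases or more. All 10 members lay below the median of their length class, ADE16 only slightly (-0.02 beside 0.05). With controls taken off, 9 lay below and 1 above (ADE16, 0.05 beside 0.04). The direct contrast chose the members, so nothing is read from these counts. The long ADE6 (4077 bases) was at -0.80 and ADE5,7 (2409 bases) at -1.45, in classes whose medians were above 0. In all NPCs over the GFP control the class medians were -0.50, 0.27, 0.74 and 1.11. There 8 members lay above the median of their class and 2 below, ADE6 (0.72) and ADE16 (0.18). ADE8 and ADE1, both under 1000 bases, lay above their class at 0.08 and 1.16.

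**Figure D4:**
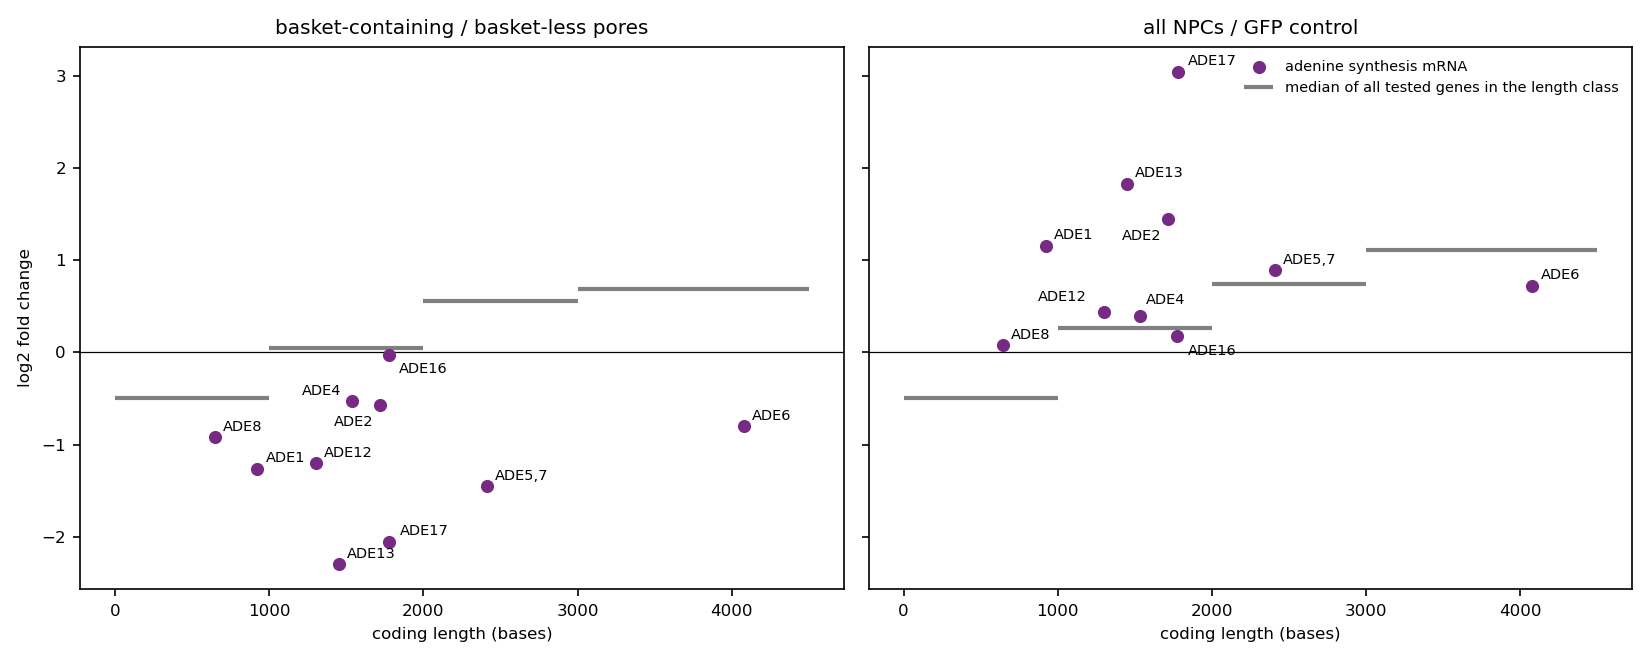
Log2 fold change (y axis) against coding length in bases (x axis) for the 10 mRNAs (points), with the median of all tested genes in each length class (gray bars, the last class being open-ended). At left is basket-containing over basket-less pores, the contrast that chose the members, where all points lie below the bars. At right is all NPCs over the GFP control, where all but ADE6 and ADE16 lie above them.

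Another 40 genes were described, in lists chosen with earlier results of these data known. They cover the rest of purine metabolism and its supply, and also hold 7 genes of histidine synthesis and 3 transcription factors. In all NPCs over the GFP control, 8 of the 40 were called higher and 29 lower, beside 46.9% and 37.6% of all genes. Unlike the members, these genes were not set beside genes of their own length, with which this comparison moved. One-carbon supply, which feeds formyl groups to the ADE8, ADE16 and ADE17 reactions, had 4 of 7 higher and 3 lower, with a median of 0.86. GCV1 (1.65 ± 0.04), of the glycine cleavage system, and MTD1 (1.61 ± 0.05), a methylenetetrahydrofolate dehydrogenase, rose with the smallest adjusted p of the list, whereas ADE3 (-0.21 ± 0.04), the trifunctional folate enzyme, fell. The PRPP synthetases, which make the starting scaffold, had 0 of 5 higher and 5 lower (median -0.47), including PRS5 (-0.47 ± 0.04) and PRS3 (-0.50 ± 0.05). The GMP branch had 1 of 6 higher and 5 lower (median -0.92), including IMD2 (-1.91 ± 0.04), an IMP dehydrogenase with close relatives among whose copies reads may be split, and GUK1 (-1.17 ± 0.04), guanylate kinase. The 5 and the median include IMD1, which was scarce, at 0.98 CPM in all NPCs against 10.5 CPM in the GFP control. Salvage and AMP turnover had 1 of 12 higher and 9 lower (median -0.79), including FCY2 (-0.94 ± 0.03), the purine-cytosine permease, and ADO1 (-1.10 ± 0.05), adenosine kinase. Histidine synthesis, which joins the purine chain at the ADE16 and ADE17 substrate AICAR, had 1 of 7 higher and 5 lower (median -0.29), including HIS1 (-0.90 ± 0.04), its entry enzyme, and HIS3 (-1.81 ± 0.10), a dehydratase. Of the transcription factors, PHO2 rose by 2.13 ± 0.07, while BAS1 (-0.53 ± 0.06) and GCN4 (-0.88 ± 0.05) fell. In basket-containing against basket-less pores, 8 of the 40 were called higher and 30 lower, beside 40.3% and 42.2% of all genes.

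By group profile, the genes most like the members' median were BER1 (root mean square difference 0.11 on the log2 scale), SHM2 (0.11), a serine hydroxymethyltransferase of one-carbon supply, NAT1 (0.12), a subunit of an N-terminal acetyltransferase, CCE1 (0.14), a mitochondrial cruciform-cutting endonuclease, and GPI17 (0.14), of the GPI transamidase. This compares mean log2 CPM, centred over the 6 groups, among 5097 genes of at least 20 CPM. Pearson's r over the 6 group means was 0.97 to 0.99 for these 5, and the group means share libraries and scaling across genes. Among the members themselves ADE1 (0.20) and ADE5,7 (0.21) lay nearest to the median profile and ADE17 (0.88) furthest, while r was lowest for ADE16 (0.15), ADE12 (0.41) and ADE8 (0.41).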

How the data were processed

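RNA of 18 libraries was analysed, 3 in each of 6 groups taken from the sample titles. The authors deposited raw counts per feature, 1 column per library. Reads were aligned with STAR to R64 and counted with featureCounts, and DESeq2 is named, per the submitters' processing notes. The sources used here do not give settings, strandedness or read length. Counts were tested here with edgeR 4.0.16 in R 4.3.3 (filterByExpr, TMM, glmQLFit with robust=TRUE, glmQLFTest, two-sided) in 1 fit to the 18 libraries, with contrasts between groups. Benjamini-Hochberg adjustment ran over the 6429 genes tested, with calls below 0.05. Standard errors were obtained by dividing each log2 fold change's size by the root of its F statistic. Alternatives were DESeq2 size factors, upper-quartile factors, no filter on low counts, a minimum mean count of 50, a replicate block, each library left out, only the groups compared, and the DESeq2 1.42.0 Wald test. Sequences and coding lengths come from the RefSeq R64 genome, with promoters as the 300 bases before the start codon. The members and lists were chosen with earlier results of these data known. Named are the 10 members, up to 2 genes of each other list by smallest adjusted p in all NPCs against the GFP control, ADE3, BAS1, PHO2, IMD1 for its low level, and the 5 genes most alike in profile.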

Additional observations from a re-analysis of the deposited data

Results flagged for a closer look

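The test for a single outlying value was not applied, since it needs groups of at least 4 libraries, and only differences between matched comparisons were searched. The change over input in the PrA control minus that in the GFP control differed from 0 for 4 members by the direct test between the controls. The difference was 1.20 on the log2 scale for ADE12, 0.14 for ADE17, -0.11 for ADE2 and -0.21 for ADE6 (edgeR adjusted p = 1.61e-16, 0.0236, 0.0231 and 0.00855, n = 3 per group). It ranged from 1.19 to 1.23 over the alternatives for ADE12. The calls of ADE17, ADE2 and ADE6 were all lost without replicate 1 or without replicate 2 of the PrA control, and with only the groups compared. The libraries of the controls overlapped for ADE17 and ADE6 and not for ADE12 and ADE2.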

How the results depend on the processing

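Across 12 comparisons and the alternatives, 1544 values of single members kept their direction and their side of the threshold, and 26 reversed direction. Of those that kept their direction, 18 gained the call and 32 lost it. Reversed values are counted only as reversed, also where the call was gained or lost. Upper-quartile factors shifted the median of all genes by -0.34 in basket-containing pores over the PrA control and by -0.29 in all NPCs over the GFP control. Between the pore types they shifted it by -0.08, and DESeq2 size factors by 0.13. With upper-quartile factors, 2 members (ADE2 and ADE17) were called higher in basket-containing pores over the PrA control, where ADE6 was at -0.084 and ADE1 at -0.030. With the same factors, 2 were called lower in all NPCs over the GFP control (ADE8 at -0.21, ADE16 at -0.11) and 3 were called higher in all NPCs over input. Upper-quartile factors also put ADE1 at -0.053 in basket-less pores over input, ADE13 at -0.0054 in the PrA control over the GFP control and ADE16 at -0.021 between the pore types with controls taken off. Between the pore types, directly and with controls taken off, 1 member (ADE16) was called higher with DESeq2 size factors, no filter and the DESeq2 Wald test, and 0 to 1 with a library left out. With upper-quartile factors ADE16 was called lower in the direct contrast (-0.10). The direct value of ADE16 was 0.11, 0.10 and 0.11 in those settings, and -0.033 to 0.099 with a library left out. ADE8 in all NPCs over the GFP control was at -0.043 with DESeq2 size factors and with the Wald test, -0.018 with no filter and -0.051 with only the groups compared. For the PrA control over the GFP control, 1 was called higher and 0 lower with only the groups compared. With a library left out 1 to 2 were higher and 0 to 5 lower. There ADE5,7 was at 0.0012 with only the groups compared and at -0.041 to 0.016 with a library left out, and ADE13 at -0.0070 with DESeq2 size factors, -0.0073 with the Wald test and -0.033 to 0.025 with a library left out. With a library left out, ADE8 in basket-containing pores over input was at -0.097 to 0.031 and ADE13 in basket-less pores over input at -0.016 to 0.0064. The cause was not tested. The replicate block changed no count: 9 of 10 members were called higher in all NPCs over the GFP control and 9 lower between the pore types. Whether replicate numbers pair the libraries is not known. In 0 of 15 pairs of groups was every correlation between same-numbered libraries over 0.1 (range -0.29 to 0.50). The PrA control and input were at 0.29, 0.097 and 0.50. In 1 pair of groups did every library correlate best with its own number. With 3 libraries per group these values cannot exclude pairing. With 902 counts or more for each member in each library, depth limits only the smallest differences.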
